A study of Mus musculus with 6 samples.

Results

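Transcript levels of 9 proteoglycan core protein genes were compared between DM1 and normal mouse myoblasts. The genes were chosen by name, with earlier results of these data known, so counts of calls among them are descriptions. They comprised the 7 small leucine-rich proteoglycan genes *Dcn*, *Bgn*, *Aspn*, *Lum*, *Prelp*, *Fmod*, and *Ogn* and the large proteoglycan genes *Vcan* and *Hspg2*, out of 55421 genes in the count table. The cells were C2C12, an established line of mouse myoblasts that form multinucleated myotubes by fusion once serum is lowered. Stable transfection had introduced a *GFP* plasmid with 5 CTG repeats (GFP-CUG5, the normal group) or 200 CTG repeats (GFP-CUG200, the DM1 group) behind the *GFP* coding sequence, in the untranslated 3′ part, so that both groups carried the plasmid backbone and had passed G418 selection. RNA-seq was performed on total RNA at differentiation day 4, after the same switch to horse serum and insulin, with 3 libraries per group. The study calls the libraries of a group biological replicates, without saying whether they were transfected separately, and the p-values measure the spread between these libraries.

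Small leucine-rich proteoglycans are secreted proteins built from leucine-rich repeats that bind collagen fibrils and set their spacing and width. Class I members (decorin, biglycan, and asporin) and class II members (lumican, fibromodulin, and PRELP) also bind growth factors, and several carry chondroitin, dermatan, or keratan sulfate chains. Versican is a large chondroitin sulfate proteoglycan that binds hyaluronan in loose, provisional matrix, and perlecan is a large heparan sulfate proteoglycan of basement membranes such as the sheath around muscle fibers. In muscle, most of these proteins are associated with connective tissue cells and with myoblasts, and the group is known for changing during regeneration and fibrosis.

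The library totals lay between 61707889 and 80957325 counts, and 19005 genes passed the filter on low counts. All 9 proteoglycan genes passed it. The muscle identity of the cells was visible in both groups, with *Myod1* at 61.7 ± 3.0 CPM (SD, n = 3) in the normal and 43.0 ± 5.3 CPM in the DM1 group. CPM here are counts scaled by library size and TMM. CUG200 library 3 stood apart from the other DM1 libraries. Mitochondrial genes took 8.90% of its counts against 13.5% and 13.4% in CUG200 libraries 1 and 2, while the CUG5 libraries held 9.04%, 12.3%, and 12.6%. Across 18978 tested genes, its log2 level minus that of CUG200 library 1 rose with the GC content of the longest transcript (Spearman's rho = 0.30). The same rho was 0.30 against CUG200 library 2 and -0.11 between CUG5 libraries 3 and 1. These are correlations across genes, which are not independent replicates.

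Of the 9 genes, 6 were higher and 1 was lower in the DM1 group at an adjusted p-value under 0.05 (edgeR quasi-likelihood test, Benjamini-Hochberg adjustment over all tested genes). *Aspn*, *Fmod*, *Lum*, *Ogn*, *Vcan*, and *Dcn* rose, *Prelp* fell, and *Bgn* and *Hspg2* did not pass the test. Among all tested genes, 7.13% were called higher and 8.73% lower. With the additional cutoff of an absolute log2 fold change over 1, *Aspn* and *Fmod* remained as higher and none of the 9 as lower, against 1.36% and 0.816% of all tested genes. Leaving out any 1 library lowered the 2 genes past both cutoffs to 1, which was *Fmod* without CUG200 library 1 and *Aspn* without any other library, and without CUG200 library 3 *Prelp* was past both as lower. In limma on log2(TPM + 1) and log2(TPM + 0.1), *Aspn* was called at 0.86 and 0.88 and *Fmod* was not called. Neither was then past both cutoffs, whereas *Prelp* was past both as lower in the latter (-1.05). In TMM-scaled CPM, all 9 genes had groups of libraries that did not overlap, which was the case for 37.2% of the tested genes. This count depended on the scaling: it was 7 of 9 by library totals alone and by FPKM, where *Bgn* and *Hspg2* overlapped, and 6 of 9 by TPM, where *Fmod* overlapped too, with 34.9%, 33.3%, and 30.6% of the tested genes not overlapping. Leaving out CUG5 library 1, 2, or 3 or CUG200 library 2 lowered the higher calls from 6 to 3 of the 9, namely *Aspn*, *Lum*, and *Vcan*, while the higher calls over all tested genes dropped from 1356 to between 543 and 665. *Prelp* was called lower in each of the 6 fits that left out 1 library. The median log2 fold change of the 9 genes was 0.53, and that of all tested genes was 0.015. In bulk RNA, a change in the number of cells that express a gene and a change in the RNA per cell cannot be told apart.

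**Figure D1:**
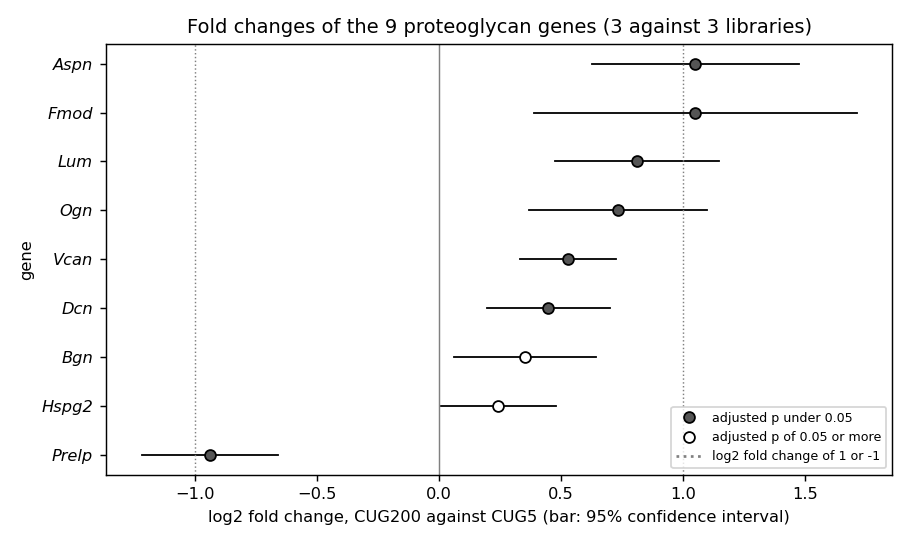
Log2 fold change of CUG200 against CUG5 for each gene, with its 95% confidence interval as a bar, from 3 libraries per group. Filled points passed an adjusted p-value of 0.05. *Aspn* and *Fmod* lie at 1.05, *Prelp* lies at -0.94, and the intervals of *Bgn* and *Hspg2*, which did not pass, start just above 0.

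*Dcn* encodes decorin, which binds collagen fibrils and sequesters TGF-β. The gene (ENSMUSG00000019929) lies on the plus strand at chr10:97479609-97518143 (GRCm38) and has 9 merged exons. Its level was 734, 772, and 693 CPM in CUG5 libraries 1, 2, and 3 and 1158, 933, and 909 CPM in CUG200 libraries 1, 2, and 3. Each DM1 library was above each normal library, and CUG200 library 1 was the highest. The log2 fold change was 0.45 ± 0.11 (SE; 95% confidence interval 0.20 to 0.70; adjusted p = 0.028). The call was lost when CUG5 library 1, 2, or 3 or CUG200 library 2 was left out, with adjusted p = 0.092, 0.076, 0.12, and 0.066, respectively, and in both limma fits on log2 TPM (adjusted p = 0.11 and 0.11).

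*Bgn* encodes biglycan, the closest relative of decorin and a ligand of Toll-like receptors. *Bgn* lies on the plus strand at chrX:73483602-73495933 (ENSMUSG00000031375). The CUG5 libraries held 1532, 1349, and 1472 CPM, and the CUG200 libraries held 1632, 1703, and 2221 CPM. On this scale CUG200 libraries 1 and 2 lay just above the highest normal library, and CUG200 library 3 stood apart. By TPM the groups overlapped, with 1177, 956, and 1020.01 in the CUG5 and 986, 1119, and 1641 in the CUG200 libraries. The log2 fold change of 0.35 ± 0.13 (95% confidence interval 0.06 to 0.64) did not pass the test over all genes (adjusted p = 0.098). It passed with DESeq2 (adjusted p = 0.037), with the GC trend of each library removed (0.045), and without CUG200 library 1 (log2 fold change 0.45, adjusted p = 0.044). Without CUG200 library 3 the log2 fold change was 0.20 (adjusted p = 0.16).

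*Aspn* encodes asporin, a class I member with a stretch of aspartate residues and no glycosaminoglycan chain. It lies on the plus strand at chr13:49544443-49567565 (ENSMUSG00000021388). Its level was 34.9, 35.8, and 36.7 CPM in the CUG5 libraries and 97.4, 69.4, and 55.8 CPM in the CUG200 libraries. The normal libraries were nearly equal, whereas the DM1 libraries spread widely above them. The log2 fold change was 1.05 ± 0.18 (95% confidence interval 0.63 to 1.47; adjusted p = 0.010). It passed the test in each fit that left out 1 library, with values from 0.82 without CUG200 library 1 to 1.22 without CUG200 library 3, the former below the cutoff of 1.

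*Lum* encodes lumican, a keratan sulfate proteoglycan best known from the cornea. It lies on the plus strand at chr10:97565128-97572703 (ENSMUSG00000036446). The CUG5 libraries held 45.3, 44.1, and 37.8 CPM, and the CUG200 libraries held 92.3, 66.6, and 64.3 CPM. Its order among the DM1 libraries was that of *Dcn*, *Aspn*, and *Ogn*, with library 1 highest and library 3 lowest. This was a log2 fold change of 0.81 ± 0.15 (95% confidence interval 0.48 to 1.15; adjusted p = 0.010) and was past the threshold in each fit that left out 1 library.

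*Prelp* was the only gene of the 9 that fell. It encodes a heparin-binding class II member that is thought to anchor basement membranes to the collagen network. The gene (ENSMUSG00000041577) lies on the minus strand at chr1:133910304-133921414, and the antisense gene *Gm15851* shares 350 of its exonic bases. Its level was 16.6, 18.6, and 18.3 CPM in the CUG5 libraries and 9.29, 8.28, and 10.3 CPM in the CUG200 libraries. The highest DM1 library was thus far below the lowest normal library. The mean of the DM1 group was 0.522 of the mean of the normal group, and the log2 fold change was -0.94 ± 0.12 (95% confidence interval -1.22 to -0.66; adjusted p = 0.0032). It passed the test in each fit that left out 1 library, with log2 fold changes between -1.02 and -0.86. At -1.02, without CUG200 library 3, it was also past the cutoff on the fold change.

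*Fmod*, the fibromodulin gene, lies on the plus strand at chr1:134037254-134048277 (ENSMUSG00000041559) and is the next proteoglycan gene after *Prelp*, 115839 bases away. Fibromodulin is a keratan sulfate proteoglycan that regulates collagen fibril assembly in tendon. It had the lowest mean of the 9 genes in both groups, at 3.65, 3.00, and 3.48 CPM in the CUG5 libraries and 4.48, 6.12, and 10.4 CPM in the CUG200 libraries, from 184 to 691 counts. On this scale the DM1 values were all above the normal ones, but CUG200 library 1 only by little, and CUG200 library 3 was far above the rest. By TPM, CUG200 library 1 at 2.06 was below CUG5 library 1 at 2.09. Its log2 fold change was 1.05 ± 0.29 (95% confidence interval 0.39 to 1.71; adjusted p = 0.043). Without CUG200 library 3 it was 0.65 (adjusted p = 0.056). The call was also lost without CUG5 library 1, 2, or 3 or CUG200 library 2, with adjusted p = 0.10, 0.13, 0.12, and 0.085, respectively. It was lost with library totals alone (0.061) and in both limma fits on log2 TPM (0.18 and 0.17). With the replicate number as a block, the log2 fold change was 0.97 and the call was lost too (adjusted p = 0.057).

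*Prelp* and *Fmod* are shown with their promoters because these neighbouring class II genes moved in opposite directions. Sequences run from 250 bases before to 50 bases after the RefSeq start on GRCm38.p6, 5′ to 3′ on the strand of the gene, and capitals mark the E-box letters CANNTG, the general form of the sites that bind myogenic basic helix-loop-helix factors. The *Prelp* window is chr1:133921352-133921651 on the minus strand, and the *Fmod* window is chr1:134037004-134037303 on the plus strand.
Prelp: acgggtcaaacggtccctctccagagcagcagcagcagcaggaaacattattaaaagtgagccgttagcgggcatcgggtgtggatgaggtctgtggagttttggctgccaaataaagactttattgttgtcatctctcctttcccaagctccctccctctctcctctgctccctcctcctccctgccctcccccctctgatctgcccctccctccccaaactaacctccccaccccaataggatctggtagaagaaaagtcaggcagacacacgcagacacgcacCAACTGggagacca
Fmod: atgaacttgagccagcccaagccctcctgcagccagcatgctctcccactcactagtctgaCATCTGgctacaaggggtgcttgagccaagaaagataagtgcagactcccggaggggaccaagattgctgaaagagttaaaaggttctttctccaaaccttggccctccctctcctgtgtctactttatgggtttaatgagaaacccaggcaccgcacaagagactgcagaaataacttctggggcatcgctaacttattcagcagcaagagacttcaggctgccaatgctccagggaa
Each window held 1 match, 36 bases after the start in *Prelp* and 189 bases before it in *Fmod*. CANNTG reads the same on both strands and was found in 72.3% of 32851 RefSeq promoters of the same length. The GC content was 55.3% in the *Prelp* and 51.0% in the *Fmod* window, against a median of 52.7% over all promoters.

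*Ogn* encodes osteoglycin, also named mimecan, a class III member that is abundant in bone and muscle matrix. It lies on the plus strand at chr13:49608046-49624501 (ENSMUSG00000021390). The CUG5 libraries held 472, 559, and 532 CPM, and the CUG200 libraries held 1021, 925, and 654 CPM. CUG200 libraries 1 and 2 were close to each other, and library 3 was much nearer to the normal group. *Ogn* had a log2 fold change of 0.73 ± 0.16 (95% confidence interval 0.37 to 1.10; adjusted p = 0.019). It was 0.90 without CUG200 library 3 (adjusted p = 0.0018). The call was lost without CUG5 library 1, 2, or 3 or CUG200 library 2, with adjusted p = 0.074, 0.051, 0.065, and 0.070, respectively.

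*Aspn* and *Ogn* lie on the same strand of the same cluster on chromosome 13 and rose together, so their promoters are given for comparison. The windows are chr13:49544193-49544492 for *Aspn* and chr13:49607765-49608064 for *Ogn*, both on the plus strand, with capitals as above.
Aspn: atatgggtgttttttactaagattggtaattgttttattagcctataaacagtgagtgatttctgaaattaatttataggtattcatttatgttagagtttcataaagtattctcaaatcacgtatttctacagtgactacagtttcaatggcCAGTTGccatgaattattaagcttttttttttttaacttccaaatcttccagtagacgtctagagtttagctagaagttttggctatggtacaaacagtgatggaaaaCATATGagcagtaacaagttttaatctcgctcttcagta
Ogn: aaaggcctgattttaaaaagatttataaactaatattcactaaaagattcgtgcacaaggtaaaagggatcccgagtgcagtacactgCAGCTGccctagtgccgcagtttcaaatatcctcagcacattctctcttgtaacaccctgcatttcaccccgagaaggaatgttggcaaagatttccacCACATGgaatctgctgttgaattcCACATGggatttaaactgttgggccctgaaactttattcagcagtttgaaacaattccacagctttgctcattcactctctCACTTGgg
The *Aspn* window held 2 E-box matches, 97 bases before and 11 bases after the start. The *Ogn* window held 4, at 162, 63, and 39 bases before and 42 bases after the start. The letters TATAAA, searched on both strands, occurred 207 and 178 bases before the start of *Aspn*, 229 and 227 bases before that of *Ogn*, and in 13.6% of all promoters. The matches at 178 and 229 bases were on the minus strand, and whether any of them acts as a promoter element was not tested. The letters CATTCC (M-CAT element), searched likewise, occurred 86 bases before the start of *Ogn* on the minus strand, in no other of the 7 proteoglycan promoters matched, and in 14.7% of all promoters. GC content was 31.0% in the *Aspn* and 42.3% in the *Ogn* window. Of the 9 genes, *Dcn* and *Lum* had no entry in the promoter table and are only named.

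Among the large proteoglycans, *Vcan* rose and *Hspg2* did not pass the test. *Vcan* encodes versican and lies on the minus strand at chr13:89655312-89742509 (ENSMUSG00000021614). Its level was 861, 902, and 879.9 CPM in the CUG5 libraries and 1174, 1281, and 1357 CPM in the CUG200 libraries. In TMM-scaled CPM both groups were tight and well separated, with a log2 range of 0.067 within the normal and 0.21 within the DM1 group. The log2 fold change was 0.53 ± 0.087 (95% confidence interval 0.33 to 0.73; adjusted p = 0.0067), and the call held in each fit that left out 1 library. By TPM the libraries held 169, 167, and 154 against 179, 205, and 259, and limma on log2(TPM + 1) and log2(TPM + 0.1) did not call it (adjusted p = 0.14 and 0.13).

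*Hspg2* encodes perlecan and lies on the plus strand at chr4:137468769-137570630 (ENSMUSG00000028763), with 97 merged exons. The CUG5 libraries held 512, 489, and 501 CPM, and the CUG200 libraries held 539, 557, and 681 CPM. On this scale the DM1 libraries were all above the normal ones, by a small margin in CUG200 libraries 1 and 2. By TPM the groups overlapped, with 69.2, 63.2, and 62.0 in the CUG5 and 59.4, 65.4, and 91.2 in the CUG200 libraries. The log2 fold change was 0.24 ± 0.10 (95% confidence interval 0.01 to 0.48; adjusted p = 0.15), and no alternative brought it past the threshold. Without CUG200 library 3 it was 0.13 (adjusted p = 0.27).

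**Figure D2:**
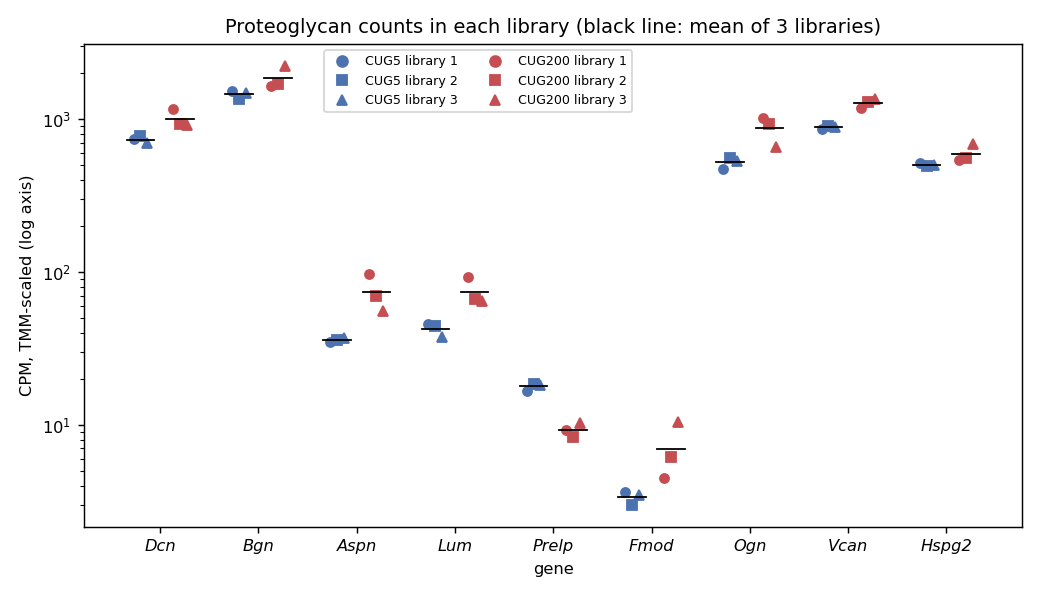
TMM-scaled CPM of each gene on a log axis, with 1 point per library and a black line at the mean of each group of 3. On this scale the groups of all 9 genes are separate, *Prelp* is the only gene whose CUG200 points lie below its CUG5 points, and CUG200 points spread more than CUG5 points for each gene.

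Levels were compared between genes by the TPM values, which account for transcript length. In the normal group, *Bgn* was highest at 1051 ± 113 TPM (SD, n = 3), followed by *Dcn* at 695 ± 56.8, *Ogn* at 340.2 ± 15.8, *Vcan* at 163 ± 8.13, and *Hspg2* at 64.8 ± 3.86 TPM. *Lum* at 29.2 ± 4.09 TPM and *Aspn* at 26.0 ± 0.83 TPM overlapped each other, and below them came *Prelp* at 8.27 ± 0.16 and *Fmod* at 1.82 ± 0.26 TPM. All other neighbours in this order had separate ranges. In the DM1 group, the first 5 places were the same, from *Bgn* at 1248 ± 346 and *Dcn* at 866 ± 62.1 TPM to *Hspg2*, with libraries between 59.4 and 91.2 TPM. *Aspn* at 48.7 ± 9.48 TPM and *Lum* at 46.4 ± 6.22 TPM again overlapped, as did *Prelp* at 3.99 ± 0.80 TPM and *Fmod* at 3.75 ± 2.21 TPM. The deposited FPKM values gave the same order in both groups.

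The balance between *Prelp* and *Fmod* differed in every library. The TPM of *Prelp* was 3.93, 5.35, and 4.54 times that of *Fmod* in the CUG5 libraries and 1.76, 1.17, and 0.786 times in the CUG200 libraries. The groups did not overlap, and *Fmod* exceeded *Prelp* only in CUG200 library 3. This ratio sets the only gene that fell against a gene that rose, so it restates their fold changes and is no separate result. The groups of the *Lum* to *Dcn* and *Aspn* to *Ogn* ratios did not overlap either, while those of the *Aspn* to *Lum* ratio did. By contrast, the *Bgn* to *Dcn* ratio was 1.59, 1.34, and 1.62 in the normal and 1.07, 1.40, and 1.86 in the DM1 libraries, so that its groups overlapped. The 9 genes together took 0.437%, 0.415%, and 0.414% of all counts in the CUG5 libraries and 0.538%, 0.549%, and 0.624% in the CUG200 libraries. *Bgn* held between 41.1% and 46.1% of their summed TPM in the normal group and between 34.9% and 48.1% in the DM1 group.

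Within the DM1 group the genes fell into 2 patterns. *Dcn*, *Aspn*, *Lum*, and *Ogn* were highest in CUG200 library 1 and lowest in library 3, whereas *Bgn*, *Fmod*, *Vcan*, and *Hspg2* were highest in library 3 and lowest in library 1. *Prelp* was highest in library 3 and lowest in library 2. The log2 range within the DM1 group was 0.80 for *Aspn* and 1.21 for *Fmod*, against 0.073 and 0.28 within the normal group. The deviations from the group means over the 6 libraries had a Pearson's r of 0.97 between *Dcn* and *Lum*, 0.98 between *Bgn* and *Hspg2*, and -0.98 between *Bgn* and *Ogn*. These are descriptions over 6 libraries, and each library's depth and base composition are shared by all 9 genes.

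The GC content of the longest transcript separated these patterns. It was 34.3% for *Aspn*, 36.3% for *Ogn*, 37.4% for *Dcn*, and 41.9% for *Lum*, and 43.7% for *Vcan*, 51.2% for *Bgn*, 53.7% for *Fmod*, 53.8% for *Prelp*, and 60.9% for *Hspg2*, with a median of 49.2% over the tested genes. *Aspn*, *Ogn*, and *Dcn* thus lay at the 0.40, 1.32, and 2.27 percentiles of the tested genes, and *Hspg2* lay at the 97.4 percentile. *Lum* and *Vcan*, on either side of the split, were both low, at the 13.4 and 20.8 percentiles. Across tested genes, the log2 fold change between the groups had a Spearman's rho of -0.042 with GC content and -0.24 with transcript length. The part of transcript length in the proteoglycan results was not tested. The level in CUG200 library 3 minus that in library 1 was -0.80 on the log2 scale for *Aspn*, -0.64 for *Ogn*, -0.35 for *Dcn*, and -0.52 for *Lum*, and it was 0.21 for *Vcan*, 0.44 for *Bgn*, 1.21 for *Fmod*, 0.15 for *Prelp*, and 0.34 for *Hspg2*. When the trend of each library with GC content was removed, an alternative chosen after seeing the data, the log2 fold changes of *Ogn*, *Aspn*, and *Lum* were 0.66 ± 0.074, 0.96 ± 0.12, and 0.75 ± 0.12 (SE). *Dcn* was at 0.39 ± 0.11 (adjusted p = 0.039), lower than before with nearly the same SE. *Vcan* was at 0.50 ± 0.095, with a larger SE than the 0.087 before. *Aspn* was then below the cutoff of 1. *Bgn* passed the test in that fit (log2 fold change 0.36, adjusted p = 0.045), which gave 7 higher genes and 1 lower. Over all genes, that fit called 1575 higher and 2115 lower, against 1356 and 1660 before. Without CUG200 library 3, 5 of the 9 genes were higher and 1 was lower, while the calls over all genes rose to 1678 higher and 2111 lower.

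**Figure D3:**
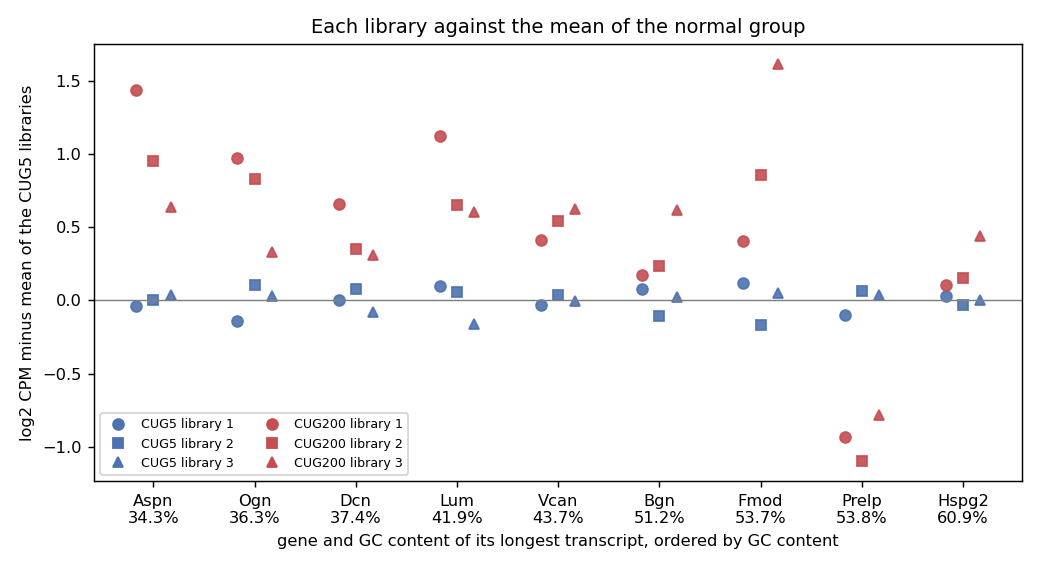
Log2 CPM of each library minus the mean of the CUG5 libraries, for the 9 genes ordered by the GC content of their longest transcript. CUG200 library 1 (red circles) is the highest DM1 point for the 4 genes up to 41.9% GC, and CUG200 library 3 (red triangles) is the highest for the other 5.

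Several of the genes lie beside each other. On chromosome 10, *Dcn* and *Lum* are followed on the same strand by the keratocan gene *Kera*, with at most 5 counts in a library, and the epiphycan gene *Epyc*, with at most 16 counts. *Epyc* was too low to give a direction, with a log2 fold change of -0.49 ± 1.28 (adjusted p = 0.85) that turned to 0.12 without CUG5 library 2 and 0.08 without CUG200 library 3. On chromosome 1, the opticin gene *Optc* ends 2304 bases from *Prelp* and had a log2 fold change of 0.28 ± 0.27 (adjusted p = 0.55), which was 0.44 without CUG200 library 1 and 0.08 without CUG200 library 2.

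On chromosome 13, the order *Ecm2*, *Aspn*, *Omd*, and *Ogn* lies within the span of *Cenpp*, a centromere protein gene on the opposite strand that was named after its values were seen. *Aspn* shares 7 exonic bases with it. All 4 proteoglycan genes of this cluster had log2 fold changes between 0.61 and 1.05. *Ecm2*, a leucine-rich repeat matrix protein gene, rose from 5.98 ± 0.46 to 9.25 ± 0.92 CPM (log2 fold change 0.63 ± 0.14, adjusted p = 0.017), and its call was lost without CUG5 library 1 or 3 or CUG200 library 2 (adjusted p between 0.064 and 0.068). In both limma fits on log2 TPM, *Ecm2* was not called either, at 0.35 and 0.46 (adjusted p = 0.17 and 0.18). *Omd*, the osteomodulin gene, had a log2 fold change of 0.61 ± 0.39 (adjusted p = 0.34) with counts of 280, 298, and 345 in the CUG5 and 716, 516, and 210 in the CUG200 libraries, so that its groups overlapped. Without CUG200 library 3, *Omd* was at 0.95 and passed the test (adjusted p = 0.020), and without CUG200 library 1 it was at 0.27 (adjusted p = 0.71). *Cenpp* had a log2 fold change of 0.65 ± 0.21 (adjusted p = 0.073). The strand setting of the counting is not given in the sources used here. *Hapln1*, which encodes a link protein that joins versican to hyaluronan and neighbours *Vcan*, had at most 3 counts.

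**Figure D4:**
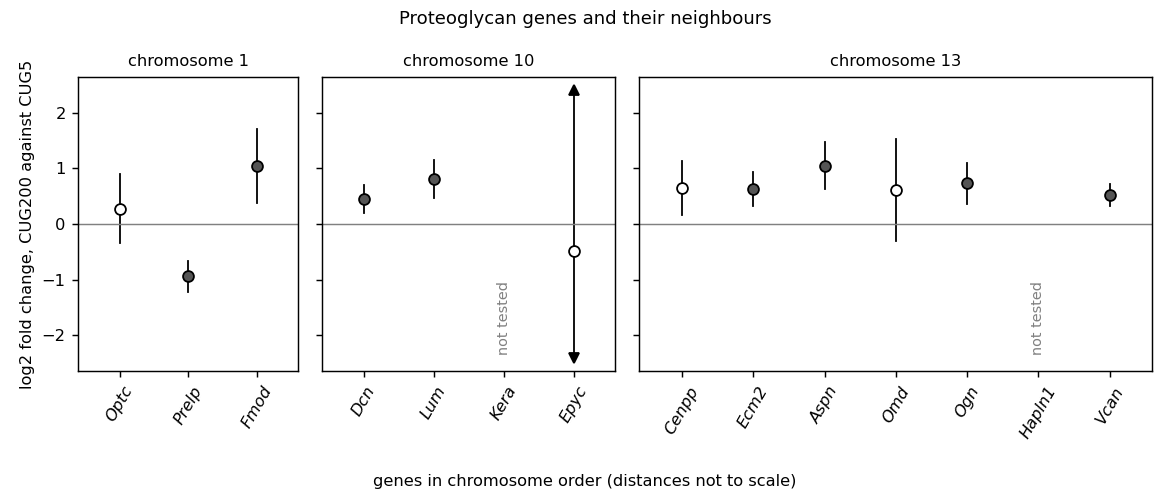
Log2 fold change of CUG200 against CUG5 with its 95% confidence interval for the genes in chromosome order, filled where the adjusted p-value was under 0.05. Arrows mark the interval of *Epyc*, which runs past the axis. On chromosome 1 *Prelp* lies below 0 and *Fmod* above it, whereas the tested genes shown on chromosome 13 all lie above 0.

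The genes most alike in profile were sought among 14021 genes with a mean of at least 1 CPM, by Pearson's r of log2 CPM over the 6 libraries. The leading gene was *Gm13370* for *Dcn* (r = 0.998), *Degs1* for *Aspn* (0.997), *Rpl12* for *Lum* (0.999), and *Trrap* for *Fmod* (0.999). For *Prelp* it was *Klhl22* (0.999), for *Ogn* it was *Bnip3l-ps* (0.995), for *Vcan* it was *Trdc* (0.998), and for *Hspg2* it was *Lrp1* (0.996). With 6 libraries, an r this high occurs for the best of many genes, and it is given as a description. The mean transcript length, weighted by abundance, overlapped between the groups for each of the 9 genes.

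Among 9 tested genes of other small leucine-rich proteoglycans, 2 were higher and none was lower, with a median log2 fold change of 0.34. The counts of this and the following lists stand beside 7.13% higher and 8.73% lower over all tested genes. Besides *Ecm2*, *Podnl1*, the podocan-like gene, rose from 34.7 ± 1.3 to 58.9 ± 10.1 CPM (log2 fold change 0.76 ± 0.12, adjusted p = 0.0065). Among 8 tested genes of other matrix proteoglycans and link proteins, 2 were higher and 1 was lower. *Col15a1*, whose product is a collagen with chondroitin sulfate chains at the outer face of basement membranes, rose from 2.95 ± 0.23 to 8.60 ± 0.65 CPM (log2 fold change 1.54 ± 0.14, adjusted p = 0.0011). *Prg4*, the lubricin gene, fell from 1.55 ± 0.10 to 0.529 ± 0.016 CPM (log2 fold change -1.55 ± 0.24, adjusted p = 0.0060). These changes of *Podnl1*, *Col15a1*, and *Prg4* were called in each fit that left out 1 library. In limma on log2(TPM + 1) and log2(TPM + 0.1), *Podnl1* was not called (adjusted p = 0.083 and 0.078), nor was *Prg4* in the latter (0.067). *Agrn*, the agrin gene, was higher (log2 fold change 0.46, adjusted p = 0.027), but not without CUG5 library 1, 2, or 3 or CUG200 library 2 (adjusted p between 0.062 and 0.11). Its call was also lost with library totals alone (0.064) and in both limma fits on log2 TPM, at 0.30 and 0.34 (adjusted p = 0.29 and 0.29).

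Cell-surface proteoglycan genes moved in both directions. Of 10 tested, 2 were higher and 3 lower (all tested genes: 7.13% and 8.73%), with a median log2 fold change of -0.067. *Tgfbr3* (betaglycan, a TGF-β co-receptor) rose from 4.99 ± 0.43 to 9.03 ± 0.31 CPM (log2 fold change 0.86 ± 0.13, adjusted p = 0.0048) and was called in each fit that left out 1 library. *Cspg4* (NG2) was higher by 0.35 on the log2 scale, and the glypican gene *Gpc1*, the syndecan gene *Sdc4*, and the hyaluronan receptor gene *Cd44* were lower, at -0.40, -0.38, and -0.33. These 4 calls were lost without CUG5 library 1 or 3 or CUG200 library 2, and those of *Cspg4* and *Cd44* also without CUG5 library 2 (adjusted p between 0.056 and 0.16). In limma on log2(TPM + 1) and log2(TPM + 0.1), *Cspg4* was at only 0.038 and 0.041 (adjusted p = 0.92 and 0.92). *Sdc4* (0.053 and 0.051) and *Cd44* (0.16 and 0.15) were not called there either, nor was *Gpc1* in the former (0.050). *Cspg4* also lost its call with library totals alone (0.096) and with the replicate number as a block (0.058).

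Genes that build the glycosaminoglycan chains were read next. Of 23 tested genes for the linker and for chondroitin or dermatan sulfate, 4 were higher and 1 was lower, with a median log2 fold change of 0.064. These were 17.4% and 4.35% of the list, against 7.13% and 8.73% of all tested genes, so the lower share was below that of all genes. The higher ones were the sulfotransferase gene *Chst3* at 0.51, *Ugdh*, which supplies UDP-glucuronate, at 0.50, the initiating transferase gene *Csgalnact1* at 0.36, and the dermatan sulfate epimerase gene *Dse* at 0.32, while the xylose kinase gene *Fam20b* was at -0.29. Leaving out 1 library left between 0 and 3 genes of this list higher, and each of the 5 lost its call without CUG5 library 1, 2, or 3 (adjusted p between 0.066 and 0.16), with further losses without CUG200 library 1, 2, or 3. None of the 5 was called in either limma fit on log2 TPM (adjusted p between 0.093 and 0.33). *Dse* also lost its call with the replicate number as a block (0.060). With library totals alone, *Csgalnact1* (0.098), *Dse* (0.11), and *Fam20b* (0.054) were not called. Of 17 tested heparan sulfate genes, none was higher and 3 were lower, with a median of -0.13. *Ext1*, a subunit gene of the heparan sulfate polymerase, fell from 362 ± 18.6 to 255 ± 13.8 CPM (log2 fold change -0.51 ± 0.085, adjusted p = 0.0071) and was called in each fit that left out 1 library. The partner subunit gene *Ext2* (-0.38) and the sulfotransferase gene *Hs2st1* (-0.44) were the others. *Hs2st1* lost its call without CUG5 library 3 or CUG200 library 2. Of the fits that left out 1 library, *Ext2* kept its call only without CUG200 library 3. It was also lost with library totals alone (adjusted p = 0.054), with the replicate number as a block (0.052), and in both limma fits on log2 TPM (0.10 and 0.099).

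Among 17 tested genes of hyaluronan metabolism and proteoglycan turnover, 3 were higher and 3 lower (all tested genes: 7.13% and 8.73%), with a median log2 fold change of -0.25. *Has2*, the main hyaluronan synthase gene, rose from 48.3 ± 4.0 to 86.9 ± 5.9 CPM (log2 fold change 0.85 ± 0.092, adjusted p = 0.0020). *Adamts15*, which encodes a versican-cleaving protease, fell from 2.70 ± 0.16 to 1.07 ± 0.25 CPM (log2 fold change -1.34 ± 0.23, adjusted p = 0.0078). Both were called in each fit that left out 1 library. *Hyal1* at 0.93 and the procollagen protease gene *Bmp1* at 0.43 were also higher, and the heparan sulfate endosulfatase genes *Sulf2* at -0.52 and *Sulf1* at -0.38 were lower. Each of these 4 lost its call without CUG5 library 3 or CUG200 library 2, and in part without other libraries (adjusted p between 0.052 and 0.12). In both limma fits on log2 TPM, *Hyal1* (0.079 and 0.078), *Bmp1* (0.33 and 0.32), and *Sulf2* (0.066 and 0.066) were not called, while *Sulf1* was. *Bmp1* was at 0.27 and 0.27 there. *Hyal1* also lost its call with the replicate number as a block (0.052) and *Bmp1* with library totals alone (0.070).

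Of the 9 fibrillar collagen genes, whose products the small leucine-rich proteoglycans bind, 4 were higher and none was lower (all tested genes: 7.13% and 8.73%). Their median log2 fold change was 0.33. *Col1a1* held 292, 269, and 290.2 CPM in the CUG5 libraries and 548, 586, and 638 CPM in the CUG200 libraries (log2 fold change 1.06 ± 0.090, adjusted p = 9.2e-04). *Col5a1* rose from 539 ± 19.6 to 1008 ± 163 CPM (log2 fold change 0.90 ± 0.12, adjusted p = 0.0032), and both calls held in every fit that left out 1 library, while *Col5a1* was not called in limma on log2(TPM + 1) and log2(TPM + 0.1) (adjusted p = 0.061 and 0.063). *Col1a2* at 0.33 and *Col5a3* at 0.38 were called too, but not without CUG5 library 1, 2, or 3 or CUG200 library 2 (adjusted p between 0.084 and 0.14). Neither was called in the limma fits on log2 TPM. There *Col1a2* was at 0.23 and 0.23 (adjusted p = 0.29 and 0.29) and *Col5a3* at 0.25 and 0.25 (adjusted p = 0.40 and 0.39). Each was called under 10 of 18 alternatives. The most abundant of them, *Col3a1*, had a log2 fold change of 0.20 ± 0.098 (adjusted p = 0.20).

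Of 14 tested basement membrane partners of perlecan, 2 were higher and 6 lower (all tested genes: 7.13% and 8.73%), with a median log2 fold change of -0.084. *Col4a1*, a type IV collagen gene, was at -0.65 ± 0.088 (adjusted p = 0.0033), the nidogen gene *Nid2* at -0.61 ± 0.096 (adjusted p = 0.0059), and the laminin gene *Lama2* at -0.61 ± 0.094 (adjusted p = 0.0054), each called in every fit that left out 1 library. *Dag1*, which encodes the perlecan receptor dystroglycan, was at -0.52 ± 0.099 (adjusted p = 0.012) and lost its call without CUG5 library 1 or 2 (adjusted p = 0.053 and 0.051). In the opposite direction, the laminin gene *Lama4* was at 0.76 ± 0.11 (adjusted p = 0.0037) but was not called in limma on log2(TPM + 1) and log2(TPM + 0.1) (adjusted p = 0.078 and 0.080). *Lama5* at 0.35 was called under 11 of 18 alternatives. Its call was lost without CUG5 library 1, 2, or 3 or CUG200 library 2 and in both limma fits on log2 TPM (adjusted p = 0.42 and 0.41), among others. Among 13 tested receptors and ligands of small leucine-rich proteoglycans, *Tlr2*, a biglycan receptor gene, was higher (log2 fold change 0.71 ± 0.15, adjusted p = 0.016), and *Met*, a decorin receptor gene, was lower (-0.75 ± 0.16, adjusted p = 0.017). No other gene of that list was called. The 7.69% called in each direction was near the share over all tested genes. *Tlr2* lost its call without CUG5 library 2 or 3 and in both limma fits on log2 TPM (adjusted p = 0.084 and 0.084). Of the fits that left out 1 library, *Met* kept its call only without CUG5 library 1.

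**Figure D5:**
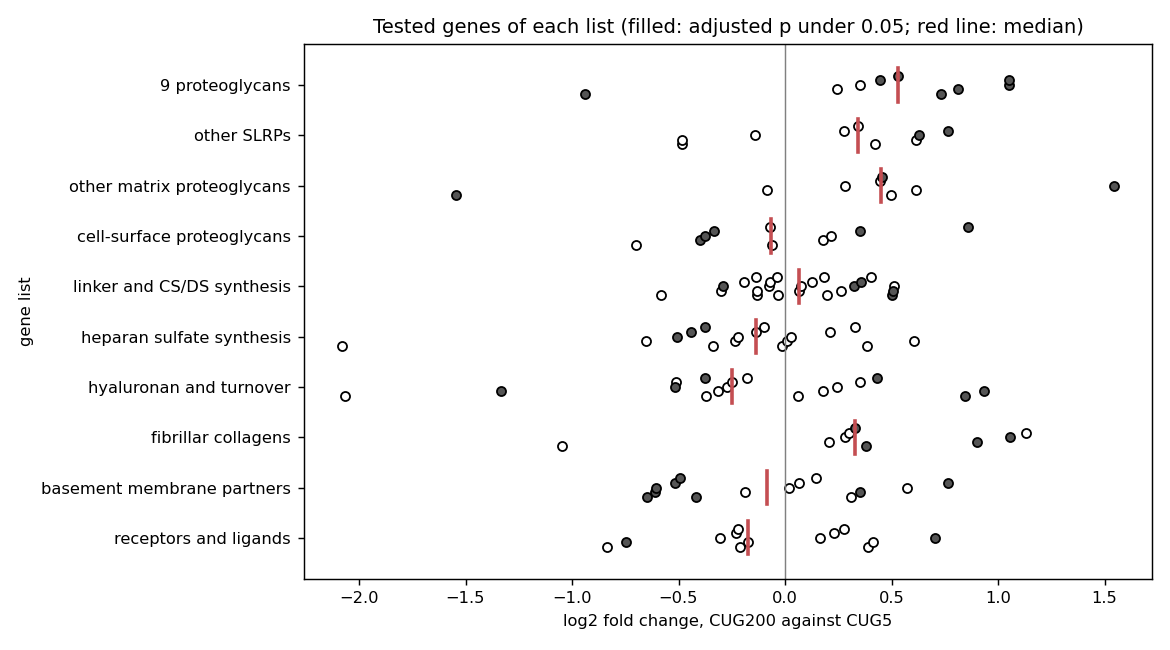
Log2 fold change of CUG200 against CUG5 for each tested gene of the 9 proteoglycans and of the lists, with 1 point per gene, filled where the adjusted p-value was under 0.05, and a red line at the median of each list. The 9 proteoglycans have a median of 0.53, and heparan sulfate synthesis holds filled points only below 0.

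Markers of muscle and of other cell types were read beside these results. The counts of all marker lists stand beside 7.13% higher and 8.73% lower over all tested genes. Of 12 tested myotube markers, 9 were lower and none was higher, and their summed level ranged from 13247 to 14438 CPM in the normal and from 7883 to 9316 CPM in the DM1 group. *Tnnt3* and *Mb* of these 9 lost the call without CUG5 library 1 or 3 or CUG200 library 2, and *Tnnt3* also without CUG5 library 2 (adjusted p between 0.065 and 0.10). The largest parts of the sum were *Ttn* (mean 4430 and 2361 CPM) and *Acta1* (3938 and 2091 CPM). *Mylpf* (-0.16), *Mymk* (-0.55), and *Mymx* (0.23, adjusted p = 0.073) were not called. For *Mymx*, each DM1 library was above each normal library. Of 5 early muscle markers, 4 were lower, of which only *Myog* (log2 fold change -0.65, adjusted p = 0.0023) was called in each fit that left out 1 library. *Myod1*, *Des*, and *Mef2c* all lost the call without CUG200 library 2 (adjusted p = 0.063, 0.10, and 0.13). *Myod1* and *Des* also lost it without CUG5 library 3, *Des* and *Mef2c* without CUG5 library 2, *Des* without CUG5 library 1, and *Mef2c* without CUG200 library 1 or 3. Of 6 tested fibroblast markers, 1 was higher: the matrix gene *Dpt*, from 23.6 ± 2.6 to 50.02 ± 8.86 CPM (log2 fold change 1.08, adjusted p = 0.0030). The others were not called. *Fap* was at -1.08 (adjusted p = 0.19), with each DM1 library below each normal one. *Pdgfra*, *Ly6a*, *Pi16*, and *Pdgfrb* were at 0.31, 0.22, 0.12, and -0.0003. The summed fibroblast markers ranged from 357 to 596 CPM in the normal and from 429 to 657 CPM in the DM1 group, which overlapped, with *Tcf21* at no more than 3 counts. Of 6 smooth muscle markers, *Tagln* and *Cnn1* were higher, the latter not without CUG5 library 3 or CUG200 library 2, and the sum ranged from 3104 to 3368 and from 3778 to 3946 CPM. Most of that sum was *Acta2*, at 2869 ± 137 and 3306 ± 94.6 CPM, which was not called (0.20, adjusted p = 0.13). *Smtn* (0.31), *Lmod1* (-0.10), and *Myh11* (-2.42) were not called either, the last with means of only 0.24 and 0.045 CPM.

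Markers of several other types were at or near 0, while others of the same lists were present. *Acan* and *Matn1* of cartilage, *Thbs4* of tendon, *Adipoq*, *Fabp4*, and *Lep* of fat, and *Ptprc*, *Adgre1*, and *Cd3e* of immune cells had at most 3 counts in each library. *Scx* and *Tnc* of the tendon list were at 49.95 ± 7.67 and 250.8 ± 22.5 CPM in the normal and at 37.7 ± 1.21 and 484 ± 85.0 CPM in the DM1 group. *Sox9* and *Runx2* of the cartilage and bone list were at 61.9 ± 2.96 and 45.2 ± 4.42 CPM in the normal and at 46.9 ± 5.02 and 50.5 ± 7.86 CPM in the DM1 group, and *Pparg* of the fat list was at 8.89 ± 1.20 and 8.34 ± 0.69 CPM. Of 9 tested markers of undifferentiated or reserve myoblasts, 2 were higher and 1 was lower, with *Cd34* at a log2 fold change of 0.97 (adjusted p = 0.0031), called in each fit that left out 1 library. *Id2*, the other higher gene, was called only without CUG200 library 3 (adjusted p between 0.056 and 0.12 in the other fits), and *Hes1*, the lower one, was not called without CUG5 library 2 or 3 (adjusted p = 0.059 and 0.066). Of 3 tested tendon markers, *Tnc* was higher and *Scx* lower, the latter kept only without CUG5 library 1. Of 4 cartilage and bone markers, *Sox9* was lower, except without CUG5 library 1, 2, or 3 or CUG200 library 2. The only tested endothelial marker, *Tek*, was lower, except without CUG200 library 2, and none of the 2 tested adipocyte and 2 tested immune markers was called. The part of these markers in the proteoglycan results was not tested.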

How the data were processed

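The groups (CUG5, normal; CUG200, DM1) and replicate numbers came from the sample labels. After trimming with trim_galore, the authors mapped the reads to GRCm38 by HISAT2 and obtained gene values by StringTie; tool versions are not given in the sources used here. They deposited counts per gene without normalization, and, for each library, the coverage (signal), FPKM, and TPM of each gene, which StringTie scales for length and library size. Deposited coverage was used to find the unit of a count (74.94 to 74.95 aligned bases), deposited TPM and FPKM for levels between genes, and deposited counts for all tests.

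Genes were filtered with filterByExpr (minimum count 10), scaled by TMM, and compared by the robust quasi-likelihood test of edgeR, without covariates. P-values were adjusted by Benjamini-Hochberg over 19005 genes. Calls were made at an adjusted p under 0.05 and, where stated, an absolute log2 fold change over 1. A run of the fit on simulated data is not reported here, and no result rests on it. The 9 genes and the gene lists were chosen with earlier results of these data known, so counts within a list are descriptions. Named genes were the 9 genes, up to 4 genes per list and direction with the largest fold change among those called, the leading gene by profile (not reported here for *Bgn*), and small leucine-rich proteoglycan neighbours.

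Coordinates and exons came from GENCODE M21 (GRCm38) and promoters from RefSeq (GRCm38.p6), which matched 7 of the 9 genes. GC content was that of the longest transcript. Alternatives were DESeq2, its size factors, library totals, 2 filters, no robust estimation, the replicate block, counts divided by 4, limma on log2(TPM + 1) and log2(TPM + 0.1), each library left out, and, chosen after seeing the data, mitochondrial genes left out and the GC trend removed. Same-numbered libraries of the groups were checked for shared deviations. Software was Python 3.11.15 with pandas 2.3.3, matplotlib 3.10.9, and numpy 2.4.6, and R 4.3.3 with limma 3.58.1, DESeq2 1.42.0, and edgeR 4.0.16.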

Additional observations from a re-analysis of the deposited data

How the results depend on the processing

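*Aspn*, *Lum*, and *Prelp* kept their direction and their call under all 18 alternatives, *Vcan* under 16, *Ogn* under 14, *Dcn* under 12, and *Fmod* under 9, and *Hspg2* was called under none. With limma on log2(TPM + 1) and on log2(TPM + 0.1), 3 of the 9 genes were higher in each, while the calls over all genes were 427 and 434 higher and 816 and 850 lower, and the log2 fold changes without a call were 0.32 and 0.32 for *Dcn*, 0.66 and 0.86 for *Fmod*, and 0.38 and 0.38 for *Vcan*, on the log2(TPM + pseudocount) scale. That scale moved the median of all tested genes from 0.015 to -0.062 and -0.094. *Fmod* was also not called with library totals (1.04) and with the replicate number as a block (0.97). *Bgn* gained a call with DESeq2 (0.35) and with the GC trend removed (0.36). Leaving out 1 library gave 3 to 7 higher genes and 1 to 1 lower gene, and log2 fold changes of 0.34 to 0.51 for *Dcn*, 0.20 to 0.45 for *Bgn*, 0.65 to 1.30 for *Fmod*, 0.61 to 0.90 for *Ogn*, and 0.13 to 0.32 for *Hspg2*. *Epyc* ranged from -1.06 to 0.12 when 1 library was left out, above 0 without CUG5 library 2 (0.12) and CUG200 library 3 (0.08). The cause was not tested. With the replicate block, 5 of the 9 genes were higher and 1 was lower, and 1326 genes were higher and 1497 lower overall. Same-numbered libraries had correlations of deviations of 0.068, 0.022, and 0.026, and libraries with different numbers had values from -0.072 to 0.045. With 3 libraries per group, whose deviations must cancel, this check cannot decide whether the numbers pair the samples. Of the values for single genes under the alternatives, 685 kept direction and call, 170 lost and 4 gained the call, and 2 reversed. With at most 16 counts in a library, *Epyc* was too low to give a direction. Intervals cover the spread of 3 libraries per group only.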
